A study of Mus musculus with 12 samples.

Results

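The fibroblast growth factor (FGF) family was followed here as 36 genes read by 37 probe sets, of 19938 genes with a probe set of exactly 1 symbol on the array. They are the 22 numbered Fgf ligands that have such a probe set, 5 receptors (Fgfr1 to Fgfr4 and Fgfrl1), the binding proteins Fgfbp1 and Fgfbp3, and 7 feedback inhibitors (Spry1 to Spry4 and Spred1 to Spred3). They were taken by symbol.

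Secreted FGF ligands bind receptor tyrosine kinases together with heparan sulfate chains on the cell surface. The receptors pass the signal through docking proteins to RAS and the ERK kinases, and ERK signalling induces genes such as Etv5 and Dusp6 and the Sprouty and Spred proteins that damp it. In skin, FGF18 is known from resting hair follicles, where it holds stem cells quiescent, FGF7 and FGF10 reach keratinocytes from the dermis through FGFR2, and FGF5 ends hair growth.

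Expression was measured on 12 whole-transcript arrays, 3 per group, in sorted cells of mouse dorsal skin. The bulge is the stem cell region of the hair follicle, and its cells came from Per1-Venus mice of 18 to 19 days, in which Venus fluorescence reports on the clock gene Per1. They were sorted for bright alpha6 integrin and CD34 and then for Venus, bright in the clock-positive and dim in the clock-negative group, with about 20 mice pooled per sample. The labels of the clock-negative arrays also carry the Venus-high gate, so the groups follow the sample titles and the design text. The other 6 arrays hold basal cells of the interfollicular epidermis (IFE), the epidermis between follicles, from mice 1 year old, labelled wild type or Bmal1 KO (an epidermal knockout), with 5 mice per sample. Which Cre line made the deletion, and the strains, were not analysed here. Each array therefore averages a pool, and in such bulk samples fewer cells of a type and less RNA per cell cannot be told apart. Nothing in the labels says whether the pools were prepared apart, so the p-values measure the spread between these samples, which may be in part technical.

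The basal keratins were bright in all arrays, as were 2 keratins of differentiated epidermis, while Cd34 differed between the bulge sorts. Cd34 lay between 10.95 and 10.98 in the clock-positive and between 9.44 and 9.58 in the clock-negative arrays (log2 intensity, the scale of all levels here), and the basal keratins Krt5 and Krt14 lay between 12.06 and 12.56 in both sorts. The difference in Cd34 was 1.45 (limma adjusted p = 2.8e-07), although both sorts were gated for bright CD34. Krt1 and Krt10, keratins of differentiated epidermis, lay between 12.35 and 12.81 in both sorts. In the IFE arrays Krt5 and Krt14 lay between 13.47 and 13.66 and Krt1 and Krt10 between 12.91 and 13.76, while Cd34 lay below the filter on dim genes. These levels thus do not show that the cells were only basal. The 2 sets seem to differ in their normalization, so levels were compared only within a set. Per1 read 9.77, 9.72 and 9.81 in clock-positive and 9.36, 9.20 and 9.19 in clock-negative arrays. Arntl, the gene of BMAL1, was not lower where it is labelled deleted: it read 9.85, 9.60 and 9.55 in the arrays labelled KO and 9.27, 9.47 and 9.34 in those labelled wild type (0.30, limma adjusted p = 0.530). Which exons were deleted, and which the probe set covers, was not analysed here. The level of Arntl thus gives no check of these labels. Nr1d1, a gene that BMAL1 drives, read 8.63, 8.39 and 8.44 in the arrays labelled KO and 12.28, 12.52 and 12.60 in those labelled wild type (−3.98, adjusted p = 1.08e-05), so that all 6 arrays separated by label. Between the bulge sorts Nr1d1 overlapped, at 10.25, 10.31 and 10.30 in clock-positive and 10.28, 10.17 and 10.17 in clock-negative arrays (0.08, limma adjusted p = 0.298). Per1 in turn overlapped between the labelled genotypes in the IFE (−0.51, limma adjusted p = 0.844). Of the other clock genes read, Dbp, Tef and Ciart were higher in clock-positive cells as deposited, by 0.28, 0.36 and 0.36 (limma adjusted p = 0.00469, 7.69e-04 and 0.00803). In the arrays labelled KO these 3 genes were at −1.83, −0.94 and −1.90, and only Ciart passed (limma adjusted p = 0.0662, 0.0604 and 0.0388).

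The bulge arrays differed in a way that touches most of the family. The dimmest 30% of genes had array medians of 5.31 to 5.34 in clock-positive and 5.54 to 5.60 in clock-negative arrays, and the brightest 50% had medians of 8.61 to 8.64 against 8.31 to 8.44. Dim genes thus tended to read lower, and bright genes higher, in clock-positive cells, whatever the gene. As deposited, 63.5% of the 13956 genes tested passed an adjusted p under 0.05 (limma, Benjamini-Hochberg over all genes tested), 45.2% higher and 18.3% lower in clock-positive cells, with a median change of 0.147. The median was −0.00859 after quantile normalization and −0.00246 after cyclic loess, the scalings that remove this shape. The 6311 higher and 2555 lower genes as deposited became 2639 and 2723 after quantile normalization and 2862 and 2816 after cyclic loess. Under 4 scalings (as deposited, median centring, quantile normalization, cyclic loess) 28.1% of genes kept a call in the same direction, 16.9% higher and 11.2% lower.

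In bulge cells 4 members rose in clock-positive cells under each of these scalings: the ligands Fgf1 and Fgf18, the receptor Fgfr1 and the inhibitor Spred1. The ligands Fgf8, Fgf9, Fgf17, Fgf20 and Fgf22 fell under each of them, by smaller amounts. In all 16 of the 25 members tested passed as deposited, 8 higher and 8 lower, which is a share close to the 63.5% of all genes.

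Fgf1, the ligand that can bind every FGF receptor, moved most. It read 8.92, 8.89 and 8.83 in clock-positive arrays 1 to 3 and 7.45, 7.55 and 7.21 in clock-negative arrays 1 to 3. All clock-positive arrays lay far above all clock-negative ones. The change was 1.48 ± 0.09 on the log2 scale (± is the standard error of the fit, n = 3 per group), a 2.78-fold difference with a limma adjusted p of 1.03e-06. It was 1.30 after quantile normalization and 1.26 after cyclic loess.

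Fgf18, a ligand of the resting bulge, read 9.30, 9.38 and 9.22 in clock-positive and 8.13, 8.07 and 8.02 in clock-negative arrays. The 3 values within each group lay close together and the groups were far apart. The 2.34-fold difference (1.23 ± 0.07, limma adjusted p = 7.11e-07) was 0.97 after quantile normalization or cyclic loess.

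The other ligands read lower or about the same in clock-positive cells. Fgf22, a ligand that signals through the epithelial form of FGFR2, read 7.04, 7.06 and 7.11 against 7.25, 7.59 and 7.26, a change of −0.30 ± 0.09 (limma adjusted p = 0.0162) that was −0.18 without clock-negative array 2. Fgf17 read 7.26, 7.28 and 7.16 against 7.47, 7.60 and 7.44 (−0.27 ± 0.07, adjusted p = 0.00664). Its close relative Fgf8 read 7.67, 7.73 and 7.66 against 7.86, 7.98 and 7.89 (−0.22 ± 0.06, adjusted p = 0.0123). In each the sorts did not overlap. These 3 ligands lie among the brightest 50% of genes, where 57.5% of genes were higher and 7.11% lower. That trend was weak near the levels of Fgf22 and Fgf17. Bins of genes with mean levels of 7.08 and 7.34 had median changes of −0.05 and 0.08 and lower quartiles of −0.27 and −0.16. Near the level of Fgf8, the bin at 7.86 had a median of 0.2 and a lower quartile of 0.04. Fgf8 thus fell against the trend of genes at its level. Fgf22 and Fgf17 lay at or below the lower quartiles of the bins near theirs. After quantile normalization the changes were −0.32 for Fgf22, −0.34 for Fgf17 and −0.40 for Fgf8. The call of Fgf8 was lost without clock-positive array 3 (adjusted p = 0.0506).

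Fgf9, Fgf20, Fgf15, Fgf3 and Fgf5 also fell as deposited, and they lie in the band between the dimmest 30% and 50% of genes. In that band 46.3% of all genes were lower and 14.6% higher, and of its 10 members 5 were lower and 0 higher, with a median change of −0.196 against −0.178 for the band. Fgf9, an epithelial ligand, read 6.28, 6.38 and 6.47 against 6.66, 6.98 and 6.72 (−0.41 ± 0.09, adjusted p = 0.00337). Its relative Fgf20 read 6.12, 6.20 and 6.29 against 6.55, 6.68 and 6.50 (−0.37 ± 0.07, adjusted p = 0.00165). Both were lower in every clock-positive array. Fgf15, a gut hormone, read 6.31, 6.50 and 6.44 against 6.57, 6.80 and 6.72 (−0.28 ± 0.08, adjusted p = 0.0108). Fgf3 read 6.29, 6.50 and 6.39 against 6.50, 6.88 and 6.69 (−0.30 ± 0.10, adjusted p = 0.0202), so that its groups nearly meet. Fgf5, whose loss gives mice long hair, read 6.41, 6.44 and 6.54 against 6.57, 6.81 and 6.61 (−0.20 ± 0.08, adjusted p = 0.0421), with the nearest arrays of the groups close together. Its change was −0.03 after quantile normalization or cyclic loess. Fgf3, Fgf5 and Fgf15 were not called after either of those scalings, while Fgf9 (−0.25 in each) and Fgf20 (−0.17 in each) were. The calls of Fgf3 and Fgf5 held in 2 of the 6 fits that leave out 1 array. Fgf3 lost its call without clock-negative array 2 or 3 or clock-positive array 1 or 3, and Fgf5 without clock-negative array 2 or 3 or clock-positive array 1 or 2, with adjusted p up to 0.0738 and 0.129. Fgf11 and Fgf13, which stay in the cell and bind sodium channels, were at 0.04 ± 0.07 and 0.00 ± 0.07, and the hormone Fgf23 at −0.18 ± 0.08, none past the threshold as deposited. Fgf13 was higher after quantile normalization (0.17, adjusted p = 0.0386) and missed after cyclic loess (0.17, adjusted p = 0.0540), and Fgf23 was lower after median centring (−0.19, adjusted p = 0.0493).

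The remaining 9 ligands lay below the filter: Fgf2, Fgf4, Fgf6, Fgf7, Fgf10, Fgf12, Fgf14, Fgf16 and Fgf21. Among them are Fgf7 and Fgf10, the dermal ligands of keratinocyte FGFR2. Fgf7 read 5.79, 5.81 and 5.88 in clock-positive and 6.22, 6.36 and 6.26 in clock-negative arrays, and Fgf10 read 5.79, 5.86 and 5.76 against 5.96, 6.34 and 6.28. Both were lower in every clock-positive array. Fgf2 read 5.08, 5.30 and 5.13 against 5.45, 5.31 and 5.29, with overlap. In a fit with no filter the changes of Fgf7 and Fgf10 were −0.46 ± 0.07 and −0.39 ± 0.09. Without the filter 6 of these 9 ligands were lower and 0 higher. Of all 11 dim members, which include Fgfbp3 and Spry3, 8 were lower and 0 higher, with a median of −0.246, beside 51.7% of all dim genes lower, 2.26% higher and a median of −0.213.

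**Figure D1:**
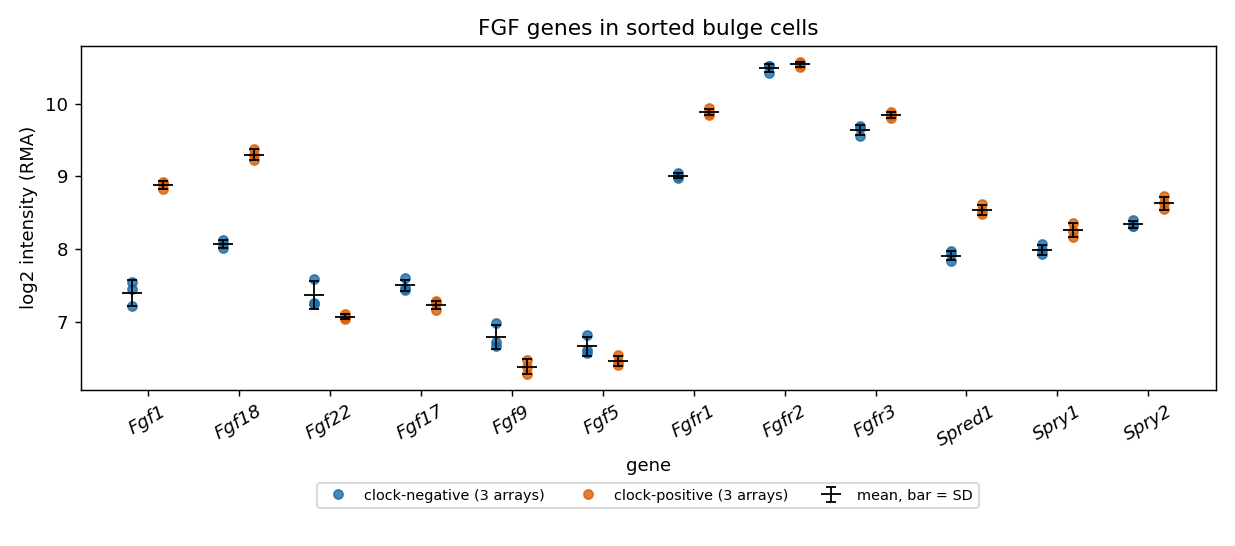
Log2 intensity (vertical axis) of 12 FGF genes (horizontal axis) in the 3 clock-negative (blue) and 3 clock-positive (orange) bulge arrays; black bars give the mean and SD. Fgf1, Fgf18, Fgfr1 and Spred1 stand clearly higher in the clock-positive arrays, whereas Fgfr2 overlaps between the sorts.

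Of the receptors, Fgfr1 changed most. It read 9.87, 9.85 and 9.94 in clock-positive and 9.04, 9.00 and 8.98 in clock-negative arrays, and the groups were separated by far more than their SDs of 0.04 and 0.03. It was 1.84-fold higher (0.88 ± 0.06, limma adjusted p = 2.37e-06), and 0.64 and 0.63 after quantile normalization and cyclic loess. The probe sets do not tell the splice forms of a receptor apart.

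Fgfr2, the receptor that keratinocytes use for FGF7 and FGF10, read 10.58, 10.50 and 10.55 against 10.52, 10.42 and 10.52. The sorts overlapped, and the change of 0.06 ± 0.06 had a 95% interval from −0.08 to 0.20 as deposited. Most bright genes rose, and after quantile normalization or cyclic loess Fgfr2 was lower in clock-positive cells (−0.15 and −0.14, limma adjusted p = 0.0383 and 0.0477), so its direction turns with the scaling. Fgfr3 read 9.81, 9.89 and 9.84 against 9.69, 9.66 and 9.56 and rose by 0.21 ± 0.06 as deposited. Its change was −0.02 and −0.03 after those scalings, and its call was lost without clock-negative array 3 or clock-positive array 2 (adjusted p up to 0.0667). Fgfrl1, a receptor that lacks the kinase domain, read 7.96, 7.97 and 8.11 against 7.61, 8.0 and 7.68, with overlapping arrays (0.25 ± 0.10, adjusted p = 0.0471). It was at 0.05 and 0.07 after quantile normalization and cyclic loess. Its call held in 1 of the 6 fits without 1 array, the one without clock-negative array 2. Fgfr4 was at −0.19 ± 0.09 and did not pass. Relative to the median of all genes, Fgfr1 stood at 0.73, Fgfr3 at 0.06 and Fgfr2 at −0.09.

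Fgfbp1, a keratinocyte protein that releases FGFs from the matrix, read 9.78, 9.75 and 9.84 in clock-positive and 9.88, 9.78 and 9.87 in clock-negative arrays. Its change of −0.05 ± 0.06 did not pass as deposited, where the arrays overlap. It was −0.28 and −0.29 after quantile normalization and cyclic loess (limma adjusted p = 0.00398 and 0.00266). Fgfbp3 lay below the filter, with values from 5.57 to 5.71 in clock-positive and from 5.83 to 5.89 in clock-negative arrays.

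Among the feedback inhibitors Spred1, which blocks RAF activation by RAS, stood apart. It read 8.62, 8.48 and 8.53 against 7.93, 7.84 and 7.97. All clock-positive arrays lay above all clock-negative ones, and the 1.54-fold difference (0.63 ± 0.07, limma adjusted p = 5.02e-05) was 0.39 after quantile normalization and 0.40 after cyclic loess. The Sproutys moved less. Spry2 read 8.63, 8.55 and 8.73 against 8.40, 8.32 and 8.31 (0.29 ± 0.07), and Spry1 read 8.16, 8.25 and 8.36 against 7.99, 8.07 and 7.93 (0.26 ± 0.07). Both passed as deposited, but the changes were 0.03 to 0.05 after quantile normalization or cyclic loess and did not pass. Bright genes as a group had a median change of 0.213 as deposited. Spry4 read 6.39, 6.43 and 6.50 against 6.51, 6.74 and 6.45, with overlap. Spry4 at −0.13 ± 0.08, Spred2 at 0.15 ± 0.07 and Spred3 at 0.01 ± 0.12 did not pass, nor did the second probe set of Spred2 at 0.18 ± 0.09. Spry3 lay below the filter, from 5.16 to 5.30 in clock-positive and from 5.50 to 5.73 in clock-negative arrays.

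**Figure D2:**
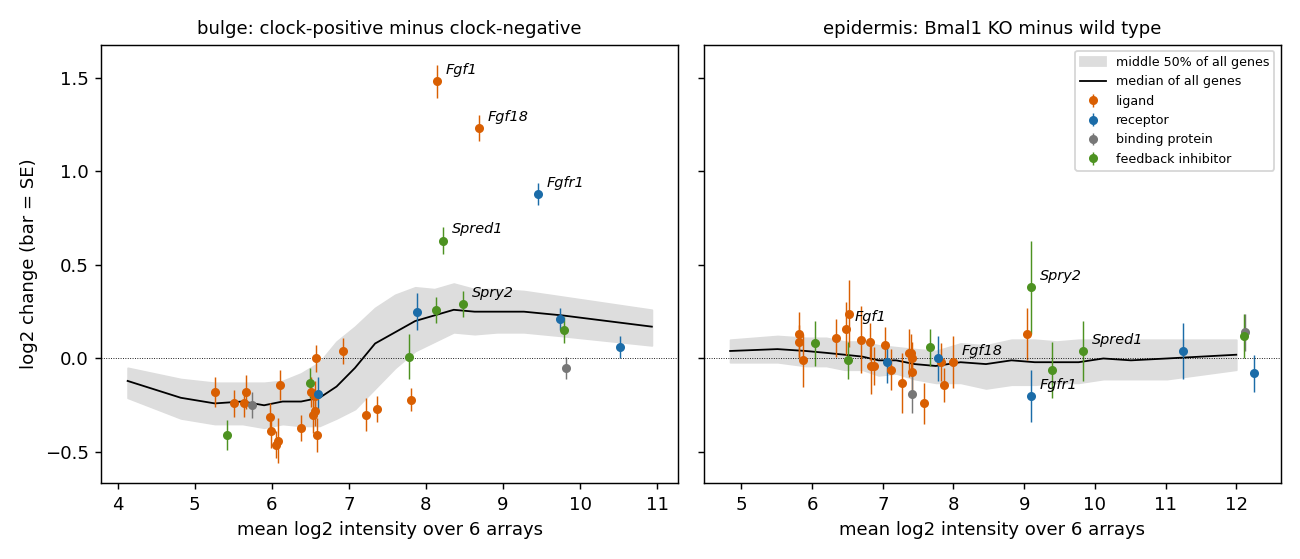
Log2 change (vertical axis, bar = SE) of every member against its mean log2 intensity over the 6 arrays of a set, for bulge (left) and IFE (right), over the median (line) and middle 50% (grey) of all genes in 20 bins of level. In bulge cells most members lie on or near the curve of all genes, while Fgf1, Fgf18, Fgfr1 and Spred1 lie well above it; the IFE curve stays near 0.

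Among the 15 members in the brightest 50% of genes, 8 were higher and 3 lower, beside 57.5% and 7.11% of all genes of that band. Their median change was 0.212 against 0.213 for the band, with Fgf1, Fgf18, Fgfr1 and Spred1 well above it and Fgf8, Fgf17 and Fgf22 below it. In 16 members the 2 sorts did not overlap, 8 in each direction, beside 69.2% of all genes tested, 50.1% with clock-positive higher and 19.1% with it lower. Of the 16 calls, 11 held in each of the 6 fits without 1 array; the same share over all genes was not computed.

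**Figure D3:**
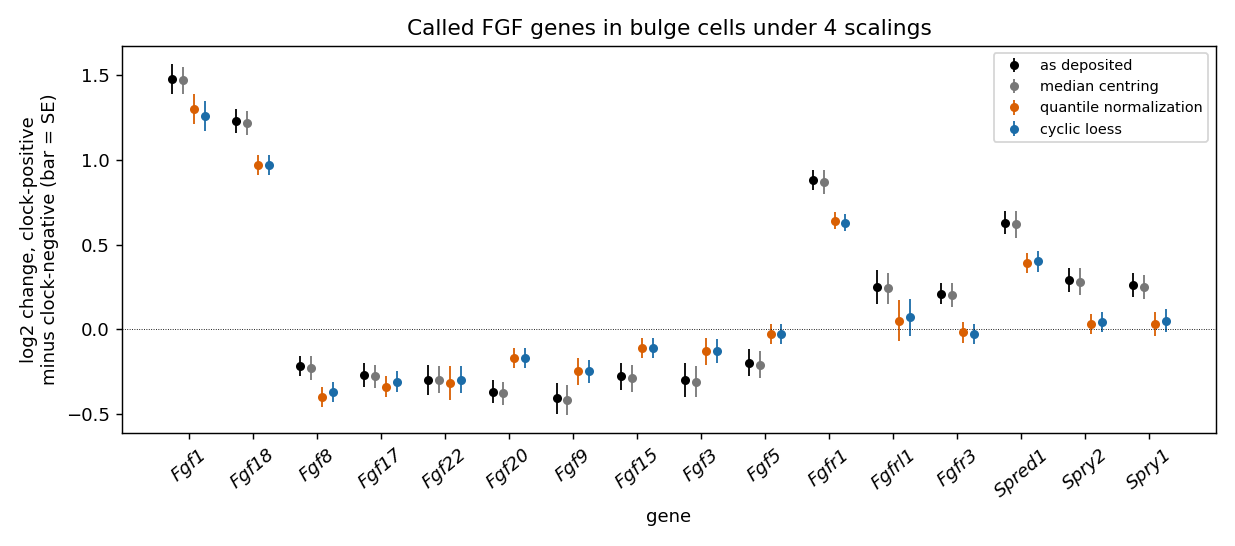
Log2 change, clock-positive minus clock-negative (vertical axis, bar = SE), of the 16 members called in bulge cells, under the values as deposited and 3 other scalings. Fgf1, Fgf18, Fgfr1 and Spred1 stay above 0 and Fgf8, Fgf17, Fgf22, Fgf20 and Fgf9 below it under each, while Fgf5, Fgfr3, Spry1 and Spry2 come close to 0 after quantile normalization or cyclic loess.

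Promoters of the family were searched for the E-box CACGTG, the site bound by BMAL1 and CLOCK, in windows from 250 bases before to 50 after each RefSeq gene start (GRCm38.p6). Of the members, 27 had 34 such windows; Fgf1, Fgf8, Fgf15, Fgf16, Fgf17, Fgf20, Fgfr1, Spry3 and Spry4 had none. The letters, which read the same on both strands, were in 4 member windows (11.8%), of Fgfrl1, Fgf6, Fgf21 and Fgfr2, against 7.15% of all 32851 windows. The related CACGTT, on either strand, was in 1 member window, of Fgf9 (4.68% of all windows). The D-box letters TTATGTAA and TTACGTAA, searched on both strands, were in 0 member windows (0.938% and 0.119% of all). The 250 bases before the start are shown for Fgf18 (chr11:33147401-33147650, minus strand) and Spred1 (chr2:117120821-117121070, plus strand), the members called higher under all scalings that have a window, and for Fgfrl1 (chr5:108693979-108694228, plus strand), which has the E-box 118 bases before its start. Capitals mark CACGTG.
Fgf18: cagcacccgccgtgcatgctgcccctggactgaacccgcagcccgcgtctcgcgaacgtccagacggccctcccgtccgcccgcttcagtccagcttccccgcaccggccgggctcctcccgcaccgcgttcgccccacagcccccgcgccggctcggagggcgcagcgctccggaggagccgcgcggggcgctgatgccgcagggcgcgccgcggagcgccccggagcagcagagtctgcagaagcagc
Spred1: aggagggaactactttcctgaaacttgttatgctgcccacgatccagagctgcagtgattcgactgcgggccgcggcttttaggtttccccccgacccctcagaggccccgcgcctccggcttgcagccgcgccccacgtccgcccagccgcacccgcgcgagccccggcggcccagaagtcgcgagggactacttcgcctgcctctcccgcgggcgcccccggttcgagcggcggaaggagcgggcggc
Fgfrl1: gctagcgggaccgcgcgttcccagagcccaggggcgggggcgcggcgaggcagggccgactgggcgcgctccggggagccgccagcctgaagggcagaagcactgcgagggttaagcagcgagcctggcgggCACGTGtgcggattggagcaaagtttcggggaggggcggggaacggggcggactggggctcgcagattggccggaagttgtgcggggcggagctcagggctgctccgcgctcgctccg
The sequences of Fgf18 and Spred1 hold none of the motifs searched, which says only that these letters are not in these windows.

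The other genes of the pathway were read from 4 lists. Of the co-receptors and receptor partners tested, 4 of 6 rose and 0 fell in bulge cells, with a median change of 0.498 against 0.147 for all genes. Flrt2, a membrane protein that binds FGF receptors, rose by 0.94 ± 0.08, Il17rd, which dampens FGF signals at the membrane, by 0.58 ± 0.08, Nrp1 by 0.56 ± 0.08 and Flrt3 by 0.43 ± 0.06. These 4 also passed after quantile normalization and cyclic loess, where Flrt1, at 0.00 as deposited, was lower (−0.25 in each). The klotho co-receptors Kl and Klb, which the FGF hormones need, lay below the filter.

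Of 21 heparan sulfate proteoglycans and their enzymes 16 rose and 0 fell, with a median change of 0.413. Sdc3 and Sdc2, core proteins of the syndecan family, rose by 1.07 ± 0.08 and 1.00 ± 0.06. Sdc3 read 8.75, 8.71 and 8.77 against 7.83, 7.62 and 7.58. Extl3, an enzyme that starts the heparan sulfate chain, rose by 0.89 ± 0.08, and Sulf2, which removes sulfate from the chain, by 0.70 ± 0.06. After quantile normalization and after cyclic loess 13 of the 16 still rose, all but Ext2, Ndst2 and Glce, and Hs3st3b1 fell (−0.27 and −0.25).

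Of 16 relay genes between receptor and ERK, 10 rose and 0 fell by small amounts, with a median change of 0.194. The adaptors Crkl (0.47 ± 0.07), Grb2 (0.37 ± 0.06) and Shc1 (0.33 ± 0.07) and the RAS activator Sos2 (0.27 ± 0.06) had the smallest p. Of these calls only Crkl passed after quantile normalization, and Crkl and Sos1 after cyclic loess. Under both scalings Araf and Ksr1 were lower (−0.18 in each for Araf, −0.26 and −0.23 for Ksr1), so that the list's rise depends on the scaling.

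Of 17 genes that FGF and ERK signals induce, 10 rose and 1 fell, with a median change of 0.263. Ier3, an early response gene, rose by 1.10 ± 0.08, Phlda1 by 1.07 ± 0.10 and Ier2 by 0.58 ± 0.07, beside Il17rd, which stands in this list too. Dusp6, the phosphatase of ERK, rose by 0.58 ± 0.09, from 8.21, 7.95 and 7.96 in clock-negative to 8.71, 8.61 and 8.53 in clock-positive arrays. Etv5, an ETS factor, rose by 0.48 ± 0.09. Its relative Etv4 was at 0.15 ± 0.08 and did not pass, and Egr2 fell by 0.28 ± 0.08. After quantile normalization or cyclic loess 7 genes of the list were higher (Etv5, Dusp4, Dusp6, Ier2, Ier3, Phlda1, Il17rd) and 2 lower (Egr2, Egr3), while Egr1, Fos, Fosl2 and Myc did not pass. These lists are set beside 63.5% of all genes called. Among the brightest 50% of genes 57.5% were higher and 7.11% lower, with a median change of 0.213. The relay list (10 of 16 higher, median 0.194) and the induced list (10 of 17 higher, median 0.263) lie near those values. Nothing particular to the lists was tested.

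Markers of other cells moved with the sort. The counts are as deposited, where 45.2% of all genes tested were higher and 18.3% lower. Of 10 endothelial genes 9 were higher in clock-positive cells and 0 lower, and the mean log2 level of the list was 8.19 to 8.20 against 7.83 to 7.89. Of these 9, Vwf, Egfl7 and Tie1 did not pass after quantile normalization or cyclic loess. Bulge stem cell genes were higher too, 11 of 12, at 10.65 to 10.68 against 9.83 to 9.91. Myeloid genes were lower in 7 of 8 and higher in 1 (7.15 to 7.23 against 7.56 to 7.60). T cell genes (8 of 8) and inner root sheath and hair shaft genes (8 of 8) were lower, at 6.90 to 6.94 against 7.76 to 7.87 and at 6.62 to 6.71 against 7.35 to 7.41. Red blood cell genes (2 of 2) were lower too. Of 9 differentiated epidermis genes 4 were lower and 0 higher, with Hrnr at −1.20 and Lor at −1.17. Of 6 melanocyte genes 5 were lower and 1, Mitf, was higher (1.24). Hair germ genes were higher in 5 of 7 and lower in 1. Of 6 dermal fibroblast genes 2 were higher and 3 lower (6.73 to 6.80 against 6.70 to 6.79), and of 7 dermal papilla genes 2 were higher and 4 lower (6.57 to 6.59 against 6.59 to 6.66). Of the fibroblast genes the collagens Col6a1 (0.69) and Col1a1 (0.36) were higher, Col3a1 (−0.25), Pdgfra (−0.18) and Twist2 (−0.23) were lower, and Dcn lay below the filter. The part of these cells in the changes of Fgf1, Fgf18, Fgfr1 and Spred1 was not tested.

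**Figure D4:**
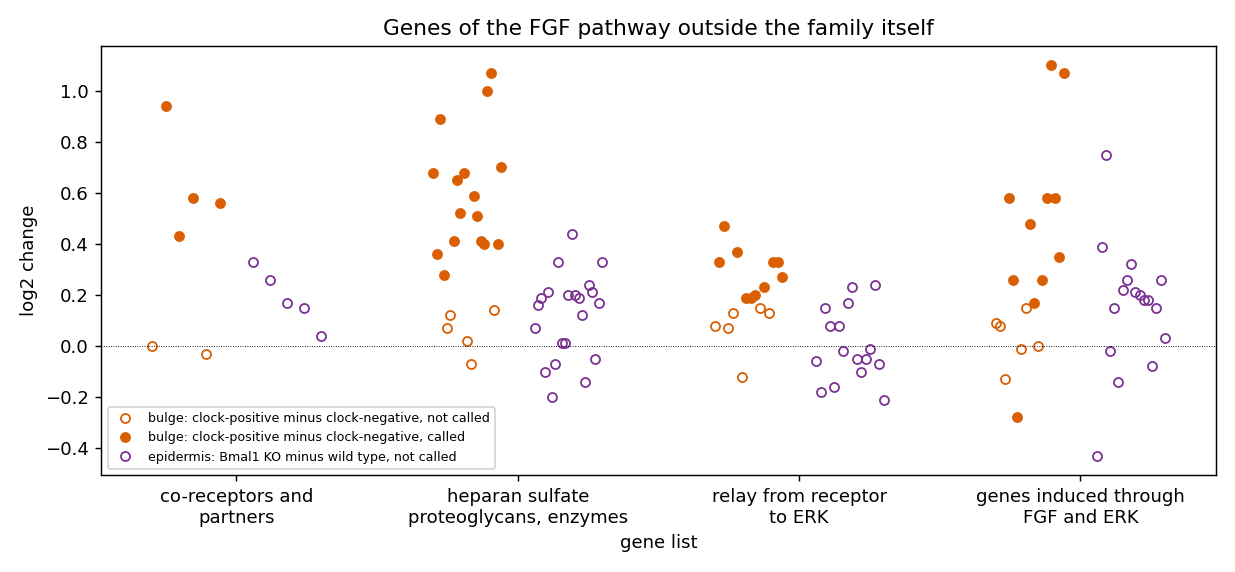
Log2 change (vertical axis) of each gene tested in 4 lists of FGF pathway genes (horizontal axis), in bulge cells (orange, clock-positive minus clock-negative) and IFE cells (purple, labelled Bmal1 KO minus labelled wild type); filled points passed an adjusted p under 0.05. Bulge genes rose by up to 1.10 (Ier3), and no gene of these lists passed in the IFE.

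In the IFE no member passed between the arrays labelled KO and wild type. Of 26 members tested 0 passed, and 0 had an unadjusted p under 0.05 in limma; over all genes 27 of 13957 passed (0.193%, of which 0.0788% higher and 0.115% lower in those labelled KO). No member passed under any other scaling, filter or fit, or without any 1 array. With quantile normalization or cyclic loess 2 members, Spry2 and Fgf22, had an unadjusted p under 0.05.

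The largest difference was that of Spry2, an inhibitor of receptor signalling, which also varied most between arrays of a group. It read 9.79, 9.21 and 8.84 in labelled-KO arrays 1 to 3 and 8.59, 8.87 and 9.24 in labelled-wild-type arrays 1 to 3. Labelled-KO array 1 was the highest and labelled-wild-type array 1 the lowest, and the rest overlapped. The change was 0.38 ± 0.25 (limma adjusted p = 0.845), with a 95% interval from −0.20 to 0.96, and it ranged from 0.13 to 0.60 without any 1 array. Spred1 also read highest in labelled-KO array 1, at 10.16, 9.79 and 9.57 against 9.71, 9.80 and 9.91 (0.04 ± 0.16). The brightest 50% of all genes had medians of 9.81, 9.58 and 9.44 in labelled-KO arrays 1 to 3. In labelled-wild-type arrays 1 to 3 the medians were 9.47, 9.68 and 9.74. Bright genes in general thus read high in labelled-KO array 1 and low in labelled-wild-type array 1. After quantile normalization Spred1 was at 0.06 ± 0.08 and Spry2 at 0.41 ± 0.17. Spry1 read 9.60, 9.34 and 9.19 against 9.21, 9.56 and 9.52 (−0.06 ± 0.15), with overlap, and Spred2 at 0.12 ± 0.12. Spry3 and Spry4 lay below the filter, Spry4 at 6.55, 6.51 and 6.43 against 6.50, 6.39 and 6.63.

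The genes that led in bulge cells did not separate the genotypes. Fgf18 read 7.90, 8.0 and 8.04 in the arrays labelled KO and 7.74, 8.02 and 8.23 in those labelled wild type, a change of −0.02 ± 0.14 with a 95% interval from −0.34 to 0.30. Fgfr1 read 9.27, 8.75 and 8.95 against 9.11, 9.22 and 9.24 (−0.20 ± 0.14, interval −0.52 to 0.13). Fgf1 lay below the filter at 6.30 to 6.78 in the labelled-KO and 6.32 to 6.52 in the labelled-wild-type arrays. Neither interval reaches, in either direction, the change of the same gene between the bulge sorts, 1.23 for Fgf18 and 0.88 for Fgfr1; changes inside the intervals were not detectable with 3 arrays a group.

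Fgf22 and Fgf17 were the 2 of 26 members whose groups did not overlap, both lower in the arrays labelled KO, beside 12.7% of all genes (4.11% higher and 8.55% lower). Fgf22 read 7.48, 7.45 and 7.48 in the labelled-KO and 7.55, 7.72 and 7.84 in the labelled-wild-type arrays (−0.24 ± 0.11, limma adjusted p = 0.661). Fgf17 read 7.83, 7.79 and 7.75 against 7.95, 7.96 and 7.89 (−0.14 ± 0.09, adjusted p = 0.845). The receptors of keratinocytes lay close together: Fgfr2 read 12.32, 12.17 and 12.16 against 12.35, 12.26 and 12.27 (−0.08 ± 0.10), and Fgfr3 read 11.39, 11.26 and 11.13 against 10.94, 11.38 and 11.35 (0.04 ± 0.15). Labelled-wild-type array 1 was the lowest of the 6 for Fgfr3. Fgfbp1 had a mean of 12.20 (SD 0.10) against 12.05 (SD 0.05), a change of 0.14 ± 0.10, and Fgfbp3 was at −0.19 ± 0.10. Fgf13 was at 0.13 ± 0.14 with labelled-KO array 1 highest at 9.39. Fgf5 read 6.84, 6.92 and 6.79 against 6.96, 6.81 and 6.90 (−0.04 ± 0.10). Fgf5 and the other tested ligands, all between −0.24 and 0.13, did not pass, and 8 ligands lay below the filter. Of those, Fgf7 read 6.33, 6.69 and 6.91 in the labelled-KO and 6.61, 6.46 and 6.12 in the labelled-wild-type arrays. Fgf10 read 6.38, 6.69 and 7.15 against 6.72, 6.60 and 6.61, and Fgf2 5.75, 5.79 and 6.09 against 5.81, 5.62 and 5.81. The groups overlapped in each.

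**Figure D5:**
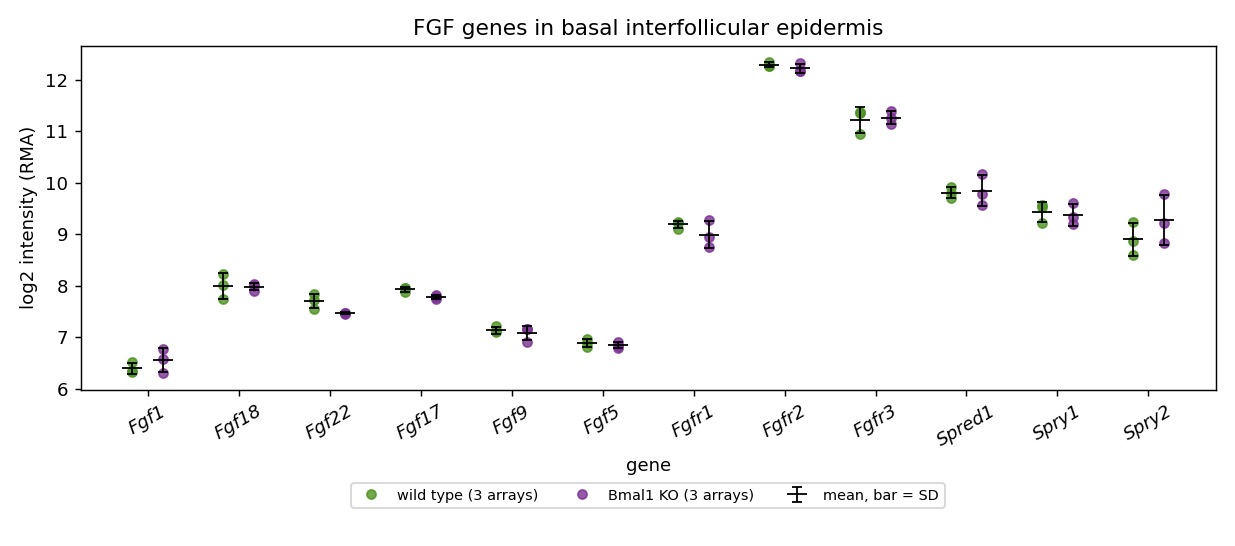
Log2 intensity (vertical axis) of 12 FGF genes (horizontal axis) in the 3 IFE arrays labelled wild type (green) and the 3 labelled Bmal1 KO (purple); black bars give the mean and SD. Spry2 spreads widely within each group, from 8.84 to 9.79 in the labelled-KO and from 8.59 to 9.24 in the labelled-wild-type arrays, and Fgf22 lies lower in every labelled-KO array.

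Among the pathway genes of the IFE, 0 passed in any of the 4 lists. Dusp6 had the smallest p of them, with 9.26, 9.32 and 9.21 in the labelled-KO and 8.08, 8.73 and 8.72 in the labelled-wild-type arrays. The groups did not overlap, and labelled-wild-type array 1 lay well below the other two. The change was 0.75 ± 0.18 (unadjusted p = 0.00264, limma adjusted p = 0.214) and ranged from 0.54 to 0.87 without any 1 array, with an adjusted p of 0.0860 or more. Dusp5, a related phosphatase, read 8.78, 8.54 and 8.50 against 8.23, 8.25 and 8.17 (0.39 ± 0.11, adjusted p = 0.327). Ccnd1 at −0.43 ± 0.19 and Fos at 0.21 ± 0.11 did not pass. Among the partners Flrt1 was at 0.33 ± 0.15 and Flrt2 at 0.26 ± 0.13, Flrt3 at 0.17 ± 0.12 and Il17rd at 0.15 ± 0.14, and among the proteoglycans and enzymes Gpc4 and Sulf2 were at 0.33, Hs3st1 at 0.44 and Gpc2 at −0.20. Of the relay genes Sos2, Braf, Gab1 and Shc1 were at −0.21, −0.18, −0.16 and 0.24. The list medians were 0.173, 0.167, −0.035 and 0.176, in the order of the lists above, beside −0.0123 for all genes. T cell genes had a mean level of 7.34 to 7.37 in the labelled-KO and 7.55 to 8.65 in the labelled-wild-type arrays, and myeloid genes 6.92 to 7.01 and 7.16 to 8.34. Of 5 T cell genes tested 1 passed, Thy1, which was higher in the arrays labelled KO (1.19), and of 8 myeloid genes 0 passed in limma; all 5 and all 8 had an unadjusted p under 0.05. Of 9 differentiated epidermis genes 0 passed, with a median change of −0.348 and levels of 10.04 to 10.34 against 10.18 to 10.89. The part of these cells in the FGF pathway values was not tested.

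Whether a member changed differently with the reporter and with the labelled genotype was tested over all 12 arrays, as clock-positive minus clock-negative cells less wild type minus KO as labelled. The sets themselves are of other cells, ages and pool sizes. Of 22 members tested 6 passed, 3 in each direction, beside 16.7% of all genes (10.7% higher and 6.02% lower). Fgf18 differed most, by 1.21 ± 0.16 (limma adjusted p = 2.85e-04), Fgfr1 by 0.69 ± 0.16 and Spred1 by 0.66 ± 0.17. Fgf18 passed without any 1 array and under each alternative. Fgfr1 passed without any 1 array but not with the replicate number as a block (adjusted p = 0.0701). Spred1 did not pass with the block either (adjusted p = 0.0985), and it lost its call without clock-negative array 2 or clock-positive array 1 or 3 (adjusted p up to 0.0647). Fgf17 (−0.41 ± 0.11), Fgf22 (−0.53 ± 0.15) and Fgf9 (−0.47 ± 0.15) passed in the other direction, and none of them passed with the block (adjusted p = 0.0964, 0.0938 and 0.128). Fgf9 also missed with no filter (0.0516), median centring (0.0508), quantile normalization (0.0998) and cyclic loess (0.0760). Fgf17 and Fgf22 each lost the call in 6 of the 12 fits without 1 array: labelled-KO array 2, labelled-wild-type array 2, clock-negative array 2 and any clock-positive array. Fgf9 kept it in those without labelled-KO array 3, labelled-wild-type array 3 or clock-negative array 1 and lost it in the other 9 (adjusted p up to 0.117). Fgf1 was not tested there, as it lay below the IFE filter; with no filter it differed by 1.64 ± 0.17.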

How the data were processed

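The authors deposited 1 table of log2 intensities for all 12 arrays, and the submitters' processing notes name RMA; the release and options used are not given in the sources used here. The RNA was first amplified across the whole transcriptome, per the labels' protocols. Probe sets were named from the platform annotation: of 35512, 21789 carry 1 symbol, 1621 several and 12102 none, and only the first kind was used. Where a gene had several, the one measured on all 12 arrays and then the brightest was kept. Genes in the lowest 30% by mean level were dropped per comparison, and the rest fitted with limma 3.58.1 in R 4.3.3 (lmFit, eBayes, Benjamini-Hochberg adjustment, threshold 0.05, two-sided). The third test used 4 group means over 12 arrays and the genes tested in both sets. The fit was tested on simulated data drawn without the level-dependent shift of the bulge arrays, so that test does not cover this shift. The number of arrays limits the precision; they have no read depth. Members and lists were chosen with earlier results of these data known. Named are all members and up to 4 genes of each list with the smallest p in a comparison. Other listed genes (Etv4, Etv5, Egr2, Dusp4, Araf, Ksr1, Hs3st3b1 and the like) were chosen after their values were seen. So were those of the check of clock genes (Arntl, Nr1d1, Per1, Dbp, Tef and Ciart). Same-numbered arrays correlated in their deviations at 0.241, 0.260 and −0.061 in the bulge and −0.442, 0.0427 and −0.525 in the IFE, so the numbers were not taken as pairs.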

Additional observations from a re-analysis of the deposited data

Results flagged for a closer look

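For 6 members the change between the sorts differed from that between the labelled genotypes, by the limma test over all 12 arrays (clock-positive minus clock-negative, less wild type minus KO as labelled). The differences on the log2 scale were 1.21 for Fgf18, 0.69 for Fgfr1, 0.66 for Spred1, −0.41 for Fgf17, −0.53 for Fgf22 and −0.47 for Fgf9. The adjusted p of this test was 0.0267 for Fgf22, 0.0274 for Fgf17 and 0.0460 for Fgf9; Fgf22 and Fgf17 missed in 6 and Fgf9 in 9 of the 12 fits without 1 array. Among the pathway genes named, the same test gave 1.33 for Dusp6, 1.21 for Sdc2, 1.20 for Flrt2, 1.09 for Extl3 and Phlda1, 1.03 for Sulf2, 1.02 for Sdc3 and Ier3, 0.98 for Gpc4, 0.75 for Ier2, 0.73 for Il17rd, 0.62 for Crkl, 0.61 for Flrt3 and 0.38 for Fos. Only those that passed are listed, beside 16.7% of all genes tested, and Fos passed narrowly (limma adjusted p = 0.0493). The value of Dusp6 includes an IFE change of 0.75 that did not pass by itself (limma adjusted p = 0.214). Their fits without 1 array are not given here. In the IFE arrays Arntl itself, at 0.30, was not lower in those labelled KO, while its target Nr1d1 was at −3.98. Groups of 3 arrays were not searched for outlying samples.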

How the results depend on the processing

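In the bulge 8866 genes passed as deposited, 5301 with all 12 arrays in 1 fit, 5362 after quantile normalization and 5678 after cyclic loess; without 1 array 7129 to 9826 did. Of the members 16 passed, 10 with all 12 arrays in 1 fit and 12 to 18 without 1 array. Of the relay genes 10 passed, all higher; 3 did after quantile normalization (1 higher, 2 lower), 4 after cyclic loess (2 higher, 2 lower) and 8 to 11 without 1 array; the co-receptor, proteoglycan and induced lists gave 4, 16 to 17 and 9 to 11. Fgfr2 turned to −0.15 after quantile normalization and −0.14 after cyclic loess, and Fgfr3 to −0.02 and −0.03; the cause was not tested. In the IFE 27 genes passed: 407 with all 12 arrays, 91 after quantile normalization, 87 after cyclic loess, 82 after median centring, 57 with a trend in eBayes, 47 with the lowest 50% left out, 16 with no filter, and 7 to 103 without 1 array, the highest without labelled-wild-type array 1. Of the members 0 passed in each. Of the pathway genes 0 passed as deposited, after quantile normalization or cyclic loess, or without any 1 array. Calls of pathway genes in the other fits are not given here. For the difference 2192 genes passed, 3637 after median centring, 1351 with the lowest 50% left out (fewer genes tested) and 1054 to 3944 without 1 array; 6 members did, 3 with the lowest 50% left out and 2 to 7 without 1 array. Arrays share only a number: with the replicate block 9351 genes and 18 members passed in the bulge, 3 and 0 in the IFE, and 567 and 1 for the difference. With 3 arrays a group, small changes of dim ligands cannot be read.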
